A study of Mus musculus with 2 samples.

Results

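The genes described here encode the proteasome: its catalytic core, its regulatory caps, its assembly chaperones and its inhibitor. They were taken by name as every gene whose symbol is Psma, Psmb, Psmc, Psmd, Psme, Psmf or Psmg followed by digits only and that had at least 30 unique molecular identifiers (UMIs, counted RNA molecules) over both libraries. Of 48 such symbols 47 met the minimum, out of 19238 symbols in the whole series with as many UMIs; Psmb11, a thymus-restricted catalytic subunit, did not. The members were split into 5 interferon-induced genes (Psmb8, Psmb9, Psmb10, Psme1 and Psme2) and 42 others.

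The retinas came from mice injected in the vitreous with lipopolysaccharide (LPS), a bacterial cell wall component, at 0.5 µg per eye. The control library was from Atg5fl/fl mice, whose Atg5 alleles are flanked by loxP sites. The knockout library was from GLAST-CreER; Atg5fl/fl mice that had also received 4-hydroxy-tamoxifen, and the GLAST promoter drives the Cre recombinase in Müller glia, the radial glia of the retina. Pooled retinas (n = 6 per group) gave 1 library for each group. Both groups received LPS, so no value here shows the effect of LPS, and genotype, Cre, tamoxifen and the pool of animals cannot be told apart. With 1 library per group no test between the groups was possible and no difference has a replicate check. All intervals are 95% and cover counting error only. Atg5 itself was at 20.5 CPM (UMIs of a gene per 1e6 UMIs of its class, interval 17.2 to 24.3) in control and 18.6 CPM (16.2 to 21.2) in knockout Müller glia-like cells; reads near the 3′ end do not check the deletion of an upstream exon.

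The proteasome is a barrel of stacked rings that degrades proteins marked with ubiquitin. Interferon-gamma replaces the constitutive catalytic subunits Psmb5, Psmb6 and Psmb7 by Psmb8, Psmb9 and Psmb10 in newly built barrels, which are then called immunoproteasomes, and it raises the Psme1 and Psme2 activator cap. Immunoproteasomes favour cleavage after residues that fit the groove of class I molecules, and they are best known in white blood cells.

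Depth differed between the libraries, with 43669961 UMIs over 8690 control barcodes and 50676223 over 5229 knockout barcodes. After filtering 8274 control and 4662 knockout cells were kept, with medians of 1396 and 6807 UMIs per cell, and the libraries shared 15 barcode sequences. Clusters were named from marker genes as a type-like class, and 8 classes had at least 50 cells in each library. The 7 clusters left without a name took up 35.7% of the control cells and 30.1% of the knockout cells. The largest, led by lens crystallin genes, held 2407 control and 578 knockout cells. Its best marker match was rod, followed by lens. A cluster led by Chil1, Lcn2, C3 and Cfb held 0.713% of control and 1.01% of knockout cells. It was kept out of the Müller glia-like class by a limit on raised markers that was set after the data were seen. With it the Müller glia-like values change as given below. Another unnamed cluster, of 18 control and 60 knockout cells, had Müller glia as its best match and neutrophil as the next. Its 5 induced genes summed to 531 and 515 UMIs per 1e6, and the class values with it added were not computed.

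The regulatory windows of the induced Psmb8 and Psme1 and the constitutive Psmb5, which each hold a match to a searched motif, are shown first. Each window runs from 250 bases before to 50 bases after the RefSeq start site in GRCm38.p6, 5′ to 3′ on the gene's strand, and 39 of 47 members had one (42 windows). Capitals mark a match on either strand. The Psmb8 window (chr17:34197945-34198244, plus strand) holds the gamma-activated site motif TTCNNNGAA. The Psme1 window (chr14:55578244-55578543, plus strand) holds, on the reverse strand, the interferon-stimulated response element (GAAA, any 2 bases, GAAA). The Psmb5 window (chr14:54617946-54618245, minus strand) holds the antioxidant response element TGACNNNGC.
Psmb8: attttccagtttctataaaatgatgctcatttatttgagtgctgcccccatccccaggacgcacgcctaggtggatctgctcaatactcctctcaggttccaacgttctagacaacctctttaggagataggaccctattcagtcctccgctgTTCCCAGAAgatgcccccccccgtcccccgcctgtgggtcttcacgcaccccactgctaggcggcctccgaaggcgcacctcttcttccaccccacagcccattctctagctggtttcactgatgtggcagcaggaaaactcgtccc
Psme1: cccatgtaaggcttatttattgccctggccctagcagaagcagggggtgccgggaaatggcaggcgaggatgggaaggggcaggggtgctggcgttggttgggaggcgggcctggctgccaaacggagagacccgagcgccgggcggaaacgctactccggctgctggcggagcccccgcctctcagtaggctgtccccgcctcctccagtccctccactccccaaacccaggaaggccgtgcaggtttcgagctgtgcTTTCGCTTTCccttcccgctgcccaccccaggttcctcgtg
Psmb5: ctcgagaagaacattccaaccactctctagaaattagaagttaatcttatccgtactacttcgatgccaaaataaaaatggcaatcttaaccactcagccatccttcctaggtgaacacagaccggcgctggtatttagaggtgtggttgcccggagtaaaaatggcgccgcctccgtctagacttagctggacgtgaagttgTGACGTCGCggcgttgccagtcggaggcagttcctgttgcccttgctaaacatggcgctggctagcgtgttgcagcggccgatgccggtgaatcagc
The Psmb8 match starts 97 bases before the start site, and the Psmb5 match 47 bases before it. The gamma-activated motif is in 8.30% of all 32851 windows and in 3 of 42 member windows, and the response element in 3.44% and in 5. Besides Psmb8 the first is held by Psmd2 and Psmg1. Besides Psme1 the second is held by Psmb3, Psmd4, Psmd9 and Psmg4. None of these others is among the interferon-induced members. The antioxidant motif is in 12.4% of all windows and in 6 of the members' windows, including Psmb6. The windows of Psmb9 and of the peptide transporter gene Tap1 overlap by 275 bases on opposite strands (chr17:34187306-34187580). The Psmb9, Psmb10 and Psme2 windows hold none of the 3 motifs. A match describes these letters only.

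Across the 8 compared classes the sum of the 5 interferon-induced genes ran from 65.1 to 1230 CPM and that of the 42 others from 1489 to 6599 CPM. Single genes did not all follow the sums: Psme2 and Psmb10 spanned 9.64-fold and 12.6-fold, and the constitutive Psmd7 and Psmg4 9.73-fold and 19.1-fold. The induced sum in the control library was 1230 CPM in monocyte and macrophage-like cells, 928 CPM in endothelial-like cells and 838 CPM in Müller glia-like cells. Neutrophil-like cells had 503 CPM. Amacrine-like cells had 211 CPM, bipolar-like cells 176 CPM, cone-like cells 160 CPM and rod-like cells 101 CPM. The knockout library gave the same top 3 classes, at 1156, 1006 and 954 CPM. Within control, the bipolar-like and cone-like values are neighbours whose intervals overlap (164 to 188 and 136 to 188 CPM).

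**Figure D1:**
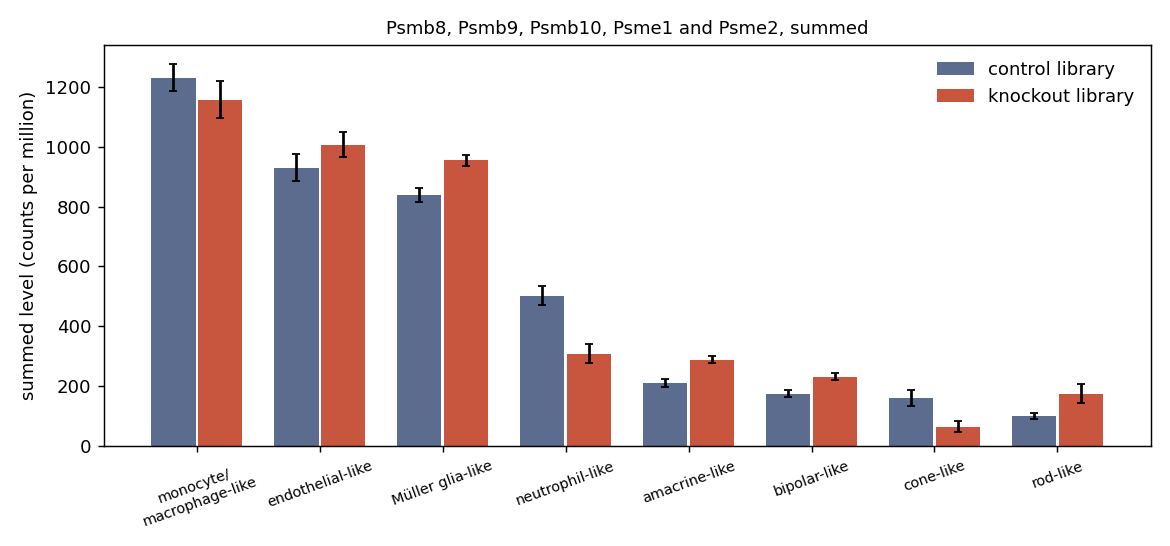
Summed level of Psmb8, Psmb9, Psmb10, Psme1 and Psme2 (y axis, CPM) in 8 cell classes (x axis), with 1 bar for each library and exact Poisson 95% intervals. Monocyte and macrophage-like, endothelial-like and Müller glia-like cells stand between 838 and 1230 CPM, and every neuronal class plotted is under 300 CPM.

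Psmb8 is the induced counterpart of Psmb5. Among classes with at least 50 cells in a library, its highest level was in control monocyte and macrophage-like cells (405 CPM). Its lowest was in knockout cone-like cells (5.11 CPM, from 4 UMIs). A smaller set, 18 T and NK-like control cells, had 634 CPM. Müller glia-like cells had 199 CPM in control and 232 CPM in knockout. At least 1 Psmb8 UMI was found in 65.8% of control and 85.2% of knockout Müller glia-like cells, against 2.67% and 3.60% of rod-like cells. Median depths were 14688 and 20174 UMIs per Müller glia-like cell and 1113 and 1012 per rod-like cell. After thinning each cell to 1000 UMIs the shares were 15.7% and 19.8% in Müller glia-like cells and 2.07% and 2.39% in rod-like cells, which left out 26 and 14 shallower Müller glia-like and 1193 and 208 shallower rod-like cells. The thinned share in control bipolar-like cells was 2.28% and in cone-like cells 1.87%, both inside the control rod-like interval of 1.49% to 2.79%. Free RNA was not measured here. Psmb8 differed between bipolar-like clusters of near equal median depth, at 35.3 CPM in one and 7.08 CPM in another in control and at 40.3 and 3.67 CPM in knockout.

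Psme1 is a subunit of the 11S activator cap. Among classes with at least 50 cells in a library, it alone of the 5 was highest in Müller glia-like cells. It was there at 381 CPM in control and 434 CPM in knockout, against 585 CPM in the 18 T and NK-like control cells. Psme2, its partner in the cap, was at 125 and 135 CPM in Müller glia-like cells and at 225 and 214 CPM in monocyte and macrophage-like cells. Psmb10, the counterpart of Psmb7, was at 101 and 129 CPM in Müller glia-like cells and at 141 and 154 CPM in monocyte and macrophage-like cells. Psmb9, whose window overlaps that of Tap1, was at 31.7 and 24.1 CPM in Müller glia-like cells but at 149 and 112 CPM in monocyte and macrophage-like cells.

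The share of the induced subunit among the UMIs of the 3 catalytic pairs was then compared between classes. It was 54.5% in control monocyte and macrophage-like, 55.1% in neutrophil-like, 42.7% in endothelial-like and 41.1% in Müller glia-like cells. It was 20.4% in rod-like, 21.2% in cone-like, 16.8% in bipolar-like and 9.54% in amacrine-like cells. In the knockout library Müller glia-like cells were at 41.7% (40.8% to 42.6%), within 1 point of control. The pairs differed inside that class: Psmb8 made up 50.8% of Psmb8 and Psmb5 in control and Psmb10 52.1% of Psmb10 and Psmb7, while Psmb9 made up 14.3% of Psmb9 and Psmb6. These shares compare classes and not genes, because 3′ counting has its own yield for each gene. A set of 18 T and NK-like control cells had the highest share, 66.8% (62.1% to 71.3%).

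**Figure D2:**
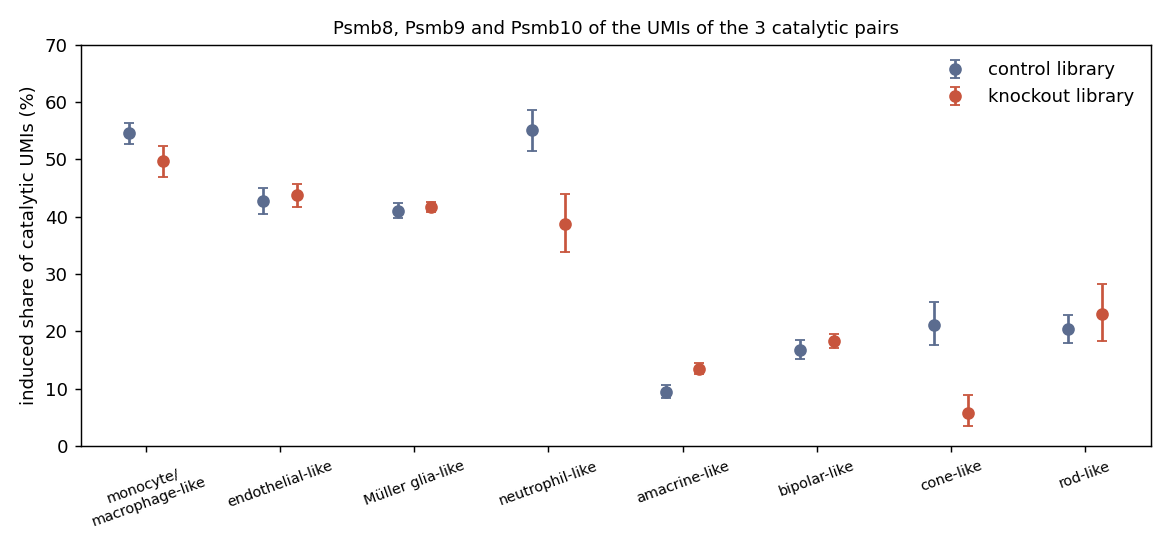
Percent of UMIs of the 3 catalytic pairs that came from Psmb8, Psmb9 and Psmb10 (y axis) in 8 classes (x axis), 1 point for each library with exact binomial 95% intervals. Müller glia-like cells are at 41.1% and 41.7%, and neutrophil-like cells at 55.1% and 38.8%.

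The 42 other members followed a different order. Their control sum was 6448 CPM in endothelial-like and 5830 CPM in monocyte and macrophage-like cells, 4176 CPM in Müller glia-like and 1688 CPM in neutrophil-like cells. Over these classes and the knockout retinal ganglion-like cells the lowest level of the 47 members was in neutrophil-like cells for 37, and the highest was in monocyte and macrophage-like cells for 19 and in endothelial-like cells for 13. Among subunits of the alpha ring, which gates the barrel, Psma7 ranged from 89.2 CPM (control neutrophil-like) to 452 CPM (knockout monocyte and macrophage-like). The ATPase Psmc3, part of the ring that unfolds substrates, ranged from 26.1 CPM in knockout neutrophil-like to 235 CPM in control endothelial-like cells. Psmb1, a structural beta subunit, ranged from 52.9 CPM in knockout neutrophil-like to 296 CPM in knockout monocyte and macrophage-like cells. Psmb5, the chymotrypsin-like subunit, had its lowest level in control rod-like cells (62.1 CPM) and its highest in knockout retinal ganglion-like cells (317 CPM). Psme4 had its highest level in control rod-like cells, 235 CPM, against 46.0 CPM in knockout neutrophil-like cells. Psmg4 was highest in knockout Müller glia-like cells (102 CPM) and at 5.36 CPM in knockout neutrophil-like cells. Psmd7, a lid subunit, ranged from 26.1 CPM in knockout neutrophil-like to 253 CPM in knockout endothelial-like cells. Psma8, a testis-restricted alpha subunit, had 15 UMIs in control and 14 in knockout endothelial-like cells (8.24 and 6.58 CPM) and at most 5 in each library of any other compared class.

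In Müller glia-like cells, where the Cre is driven, no member passed 1.5-fold between libraries. Of the 46 members counted 100 times or more 0 were higher and 0 lower, whereas 20.4% of all 10651 genes tested were past that fold, 3.76% higher and 16.6% lower. The members' median log2 ratio was 0.06 and that of all genes was -0.15. Ratios ran from 0.758 for Psmd5, a base assembly chaperone, to 1.28 for Psmb10. Psmb8 was at a ratio of 1.16 and Psme1 at 1.14. Psmb9 went the other way with 0.761 (209 control and 286 knockout UMIs), and the interval of Psmb10 lay above 1. The constitutive catalytic genes Psmb5, Psmb6 and Psmb7 had ratios of 1.14, 1.15 and 1.09.

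The lowest ratios after Psmd5 and Psmb9 were 0.844 for the base scaffold Psmd1, 0.887 for the PA200 activator Psme4 and 0.943 for the chaperone Psmg2. The highest below Psmb10 included 1.20 for the chaperone Psmg4, 1.16 for Psmd8, 1.15 for the ubiquitin receptor Psmd4 and 1.13 for Psmb4. Summed, the induced genes had a ratio of 1.14 (1.10 to 1.18) and the other members 1.05 (1.04 to 1.07). Markers of other cells also differed in this class: rod marker genes summed to 2164 CPM in control and 739 CPM in knockout (12 of 12 detected in both), and neutrophil markers to 303 and 85.3 CPM (14 of 14 and 12 of 14 detected). Erythroid markers summed to 14.3 CPM in control and 1388 CPM in knockout (5 of 6 and 6 of 6 detected). Their part in the result was not tested. Counting the Chil1-led cluster as Müller glia-like gave an induced ratio of 1.05 in place of 1.14, and 1 member was then lower by 1.5-fold. The share of all genes past the fold with that cluster was not computed.

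**Figure D3:**
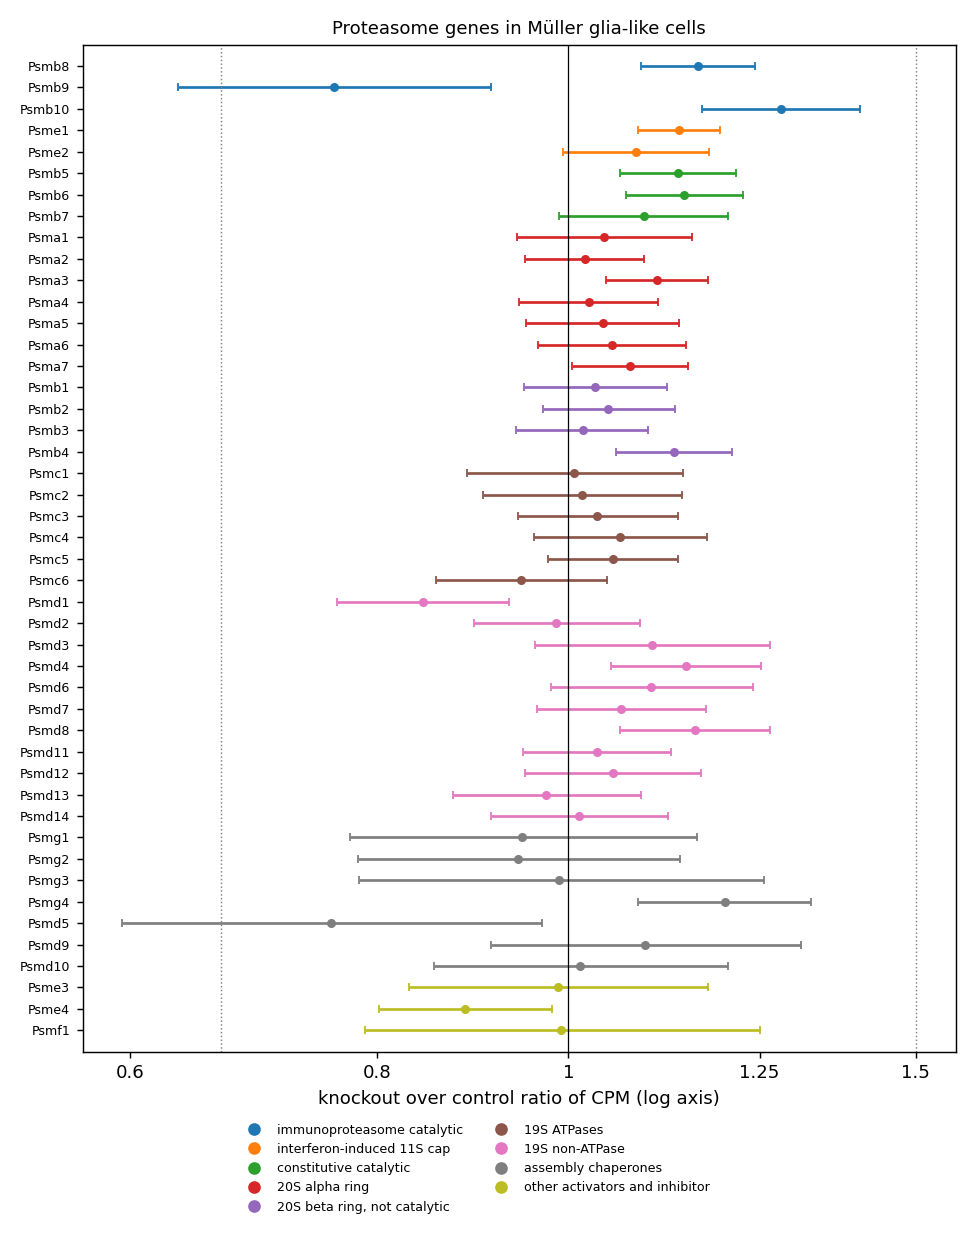
Knockout over control ratio of CPM (x axis, log scale) for 46 members in Müller glia-like cells, coloured by role, with exact 95% intervals and dotted lines at 1.5-fold. Every point is between 0.758 and 1.28.

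The direction of the induced sum depended on which Müller glia-like cells were compared. Within subcluster 0 the ratio was 0.975 (0.911 to 1.04), within subcluster 1 0.857 (0.8098 to 0.908) and within subcluster 3 1.07 (0.918 to 1.26). Subcluster 0 held 43 control and 333 knockout cells and had 1122 and 1093 CPM. Subcluster 2 held 160 control and 16 knockout cells and had 693 and 598 CPM. The first of these, high in both libraries, held more of the knockout cells, and the other, low in both, more of the control cells. In subcluster 1 Psmb9 was at 29.9 CPM in control and 13.5 CPM in knockout (ratio 0.453), and Psmb8 had a ratio of 0.773. Subcluster 3 was shallow, with medians of 1408 and 2834 UMIs per cell, and there 4 members were past the fold upwards and 4 downwards. The UMI minimum behind these numbers was one for the whole class, and members had few UMIs in this subcluster. Psmb10, at a ratio of 1.66 there, had 25 control and 69 knockout UMIs. No share of all genes past the fold was available for the subcluster, so these numbers cannot be told from counting scatter.

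**Figure D4:**
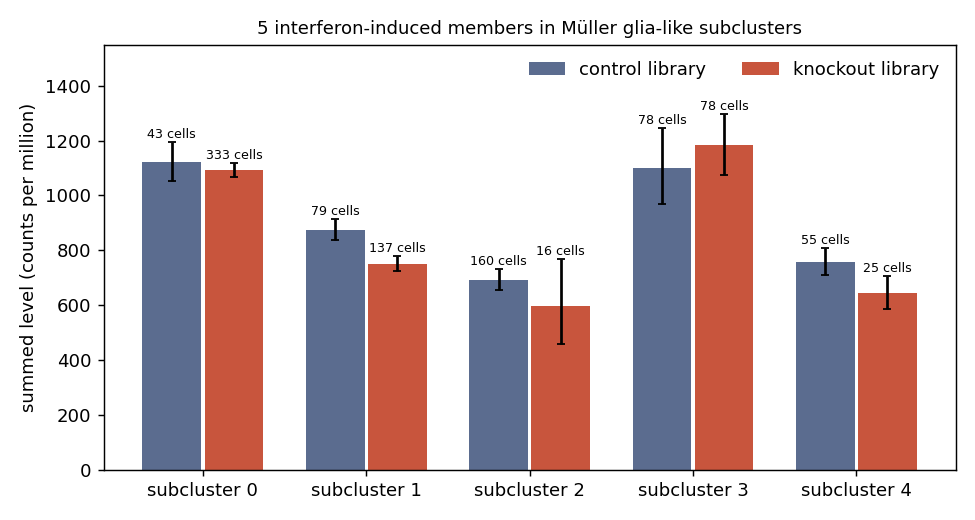
Summed CPM of the 5 interferon-induced members (y axis) in 5 Müller glia-like subclusters (x axis) for each library, with Poisson 95% intervals and the number of cells above each bar. The bars are lower in knockout in every subcluster except subcluster 3, where they are 1102 and 1182 CPM.

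Of the genes that act with the proteasome in Müller glia-like cells, 22 of 23 listed components, shuttles and regulators were tested and 0 were higher and 1 lower. That gene was Ube3c, a ubiquitin ligase on the proteasome, with a ratio of 0.637. Pomp, the chaperone that completes new barrels, went from 337 to 472 CPM (ratio 1.40), and the ubiquitin gene Ubb had 1.05. Of 7 regulators of proteasome genes 0 passed in either direction. Maff, a small Maf partner of Nfe2l1, had a ratio of 1.35, Nfe2l1 itself 1.13 and the protease Ddi2, which activates it, 0.671. Of 22 genes of the interferon-gamma and class I route 1 was higher and 4 were lower, against 3.76% higher and 16.6% lower among all genes tested, so the lower share was near the background. Socs1, a feedback inhibitor of this signalling, was at 54.8 CPM in control and 110 CPM in knockout (2.01). The lower genes included Irf8 (0.527) and, named after their values were seen, the transcription factor Irf1 (0.529) and the class I transactivator Nlrc5 (0.578). Irf1 differed in direction between subclusters. It was lower in knockout in subclusters 0 (142 and 95.6 CPM) and 1 (97.8 and 51.5 CPM). In subcluster 2, with 160 control and 16 knockout cells, it was at 302 and 58.9 CPM. It was higher in knockout in subclusters 3 (101 and 185 CPM) and 4 (62.9 and 77.0 CPM). The class I genes B2m and H2-D1 had 0.965 and 0.926.

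In neutrophil-like cells Psmb8 and Psmb9 were lower in the knockout library. Of 26 members tested 5 were lower and 0 higher, against 15.5% lower, 3.54% higher and 19% in either direction among all genes tested. The lower share of all members was thus near the background. The 22 other members tested had a median log2 ratio of -0.10, and all genes had -0.11. Psmb8 was at 131 CPM (243 UMIs) in control and 60.5 CPM (79 UMIs) in knockout, a ratio of 0.463 (0.355 to 0.5995). Psmb9 was at 71.5 and 36.01 CPM (0.504, interval 0.353 to 0.707). Psme1 and Psme2 had ratios of 0.735 and 0.732. The constitutive members past the fold were Psma3 (0.603) and, named after their values were seen, Psmb2 (0.664) and Psmd7 (0.621), while the largest ratio was 1.43 for Psmb4, a structural beta subunit. The induced share of the catalytic UMIs was 55.1% in control and 38.8% in knockout. Of the 18 interferon-gamma and class I genes tested there 0 were higher and 3 lower, a lower share near the background. Irf1 had the smallest ratio of them, 0.386, and the largest was 1.04. Rod markers summed to 3130 CPM in control and 758.5 CPM in knockout neutrophil-like cells, and monocyte and macrophage markers to 2849 and 2291 CPM. Their part in the result was not tested. A second cluster of 56 control and 5 knockout cells lies in this class. In the main neutrophil-like cluster alone the induced sum was 522 and 317 CPM.

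Among monocyte and macrophage-like cells 1 of 41 members tested passed the fold, Psmc4, an ATPase, at 1.52, against 3.42% higher, 6.27% lower and 9.69% in either direction among all genes tested. Psmb8 had 405 CPM in control and 337 CPM in knockout, a ratio of 0.832 (0.737 to 0.937). The ATPase Psmc1 had the smallest ratio, 0.724. Of the 20 interferon-gamma and class I genes tested there 0 were higher and 6 lower, among them Irf1 (0.438). Neutrophil markers summed to 2615 and 6390 CPM there, Müller glia markers to 4458 and 1591 CPM and erythroid markers to 6.99 and 2438 CPM. The part of any of these was not tested. Endothelial-like cells had 0 of 42 members past the fold, against 2.48% higher, 5.68% lower and 8.16% in either direction among all genes tested, with Psmd4 at 1.20 and Psmb9 and Psmd6 at 0.825 and 0.834. Neutrophil markers there were at 2309 CPM in control and 80.9 CPM in knockout, and their part was not tested.

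In amacrine-like cells Psmb9 and Psmb10 were higher in the knockout library. Of 46 members tested 2 were higher and 0 lower, against 2.63% higher, 2.36% lower and 4.99% in either direction among all genes tested. The higher share of all members was thus near the background. They were Psmb9, at 6.36 CPM in control and 13.7 CPM in knockout with a ratio of 2.16 (1.45 to 3.29), and Psmb10, at 30.4 and 49.5 CPM (1.63, 1.35 to 1.97). Psmb8 had 13.1 and 18.0 CPM (1.37, 1.02 to 1.86). The other members summed to a ratio of 1.04, with Psmg4 the largest at 1.34 and Psmd10, the chaperone gankyrin, the smallest at 0.887. Of the 20 tested genes of the interferon-gamma and class I route 11 were higher and 0 lower, among them, named after their values were seen, Irf1 (2.93), Nlrc5 (2.94), Tap1 (1.88) and B2m (1.83). Müller glia markers summed to 718 and 788 CPM in this class, monocyte and macrophage markers to 18.5 and 12.6 CPM and neutrophil markers to 158 and 149.6 CPM. Rod markers there summed to 1157 and 300.4 CPM and erythroid markers to 223 and 1204 CPM, and the part of any of these in the result was not tested. The amacrine-like class is sensitive to clustering: with the cell filter computed over distinct symbols, which changed 1 kept cell per library, 373 of 520 control and 640 of 863 knockout cells stayed in it, and the induced ratio was 1.48 in place of 1.37.

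Bipolar-like cells had 2 of 46 members higher and 0 lower, against 2.53% higher, 2.91% lower and 5.44% in either direction among all genes tested. The higher share of all members was thus near the background. Psmb9 was at 20.1 and 30.6 CPM (1.52) and Psmb10 at 22.5 and 34.8 CPM (1.55), while Psmb8 was at 21.7 and 22.4 CPM (1.03). The clusters in this class differed: Psmb9 was at 22.6 and 45.5 CPM and at 21.0 and 30.55 CPM in 2 of them, but at 16.3 and 6.82 CPM in the one led by Pcp2, where the induced share was 10.4% and 7.02%. Psmd14, the lid deubiquitinase, had the smallest ratio, 0.993, and Psmd10 the largest of the other members, 1.48. Rod markers summed to 1867 and 707 CPM there, and their part was not tested.

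In photoreceptors the values rested on few cells. Cone-like cells had 46 Psmb8 UMIs in control and 4 in knockout, and 5 cells held 87.0% of the control UMIs. Psmb9 had 35 and 1 UMIs, Tap1 39 and 2, and B2m 106 and 13. Of the 9 interferon-gamma and class I genes tested 0 were higher and 2 lower, against 1.91% and 3.16% among all genes tested. Their ratios ran from 0.149 to 1.21, and Tap1 was under the 100-UMI minimum. The induced sum had a ratio of 0.407 (0.291 to 0.563), which was 0.690 without the 5 cells with most UMIs of each gene and 0.777 with a stricter cell filter, both inside 1.5-fold. None of the 5 induced genes reached 100 UMIs in cone-like cells. Of the 32 other members tested 0 passed the fold, against 1.91% higher, 3.16% lower and 5.07% in either direction among all genes tested, and Psmd14 and Psmc4 had the smallest and largest ratios, 0.736 and 1.32.

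Rod-like cells had 18 of 41 members higher and 1 lower in knockout, against 13% higher, 20.4% lower and 33.5% in either direction among all genes tested. Psmb6 was at 73.4 and 166 CPM (2.27), Psmc5 at 62.4 and 128 CPM (2.06), and Psmf1, the inhibitor PI31, at 31.3 and 17.5 CPM (0.5595). The induced sum was at 101 and 174 CPM (1.71). A cluster in this class had Ccl12 and Ccl5 among its leading genes and held 125 control and 74 knockout cells. Its induced sum was 352 and 703 CPM, from 66 and 75 UMIs. The Müller glia markers Glul (304 and 300 CPM) and Rlbp1 (42.7 and 46.9 CPM) were also found there. In the main rod-like cluster they were at 61.5 and 62.2 CPM and at 8.07 and 5.19 CPM. The part of this RNA was not tested. Without the Ccl12-led cluster the ratio of the induced sum was 0.8496. The ratio was also below 1 with a stricter cell filter (0.483) and without the 5 cells with most UMIs of each gene (0.996), so the direction in rod-like cells was not stable. Erythroid markers summed to 64.5 CPM in control and 16365 CPM in knockout rod-like cells, and their part in the result was not tested.

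**Figure D5:**
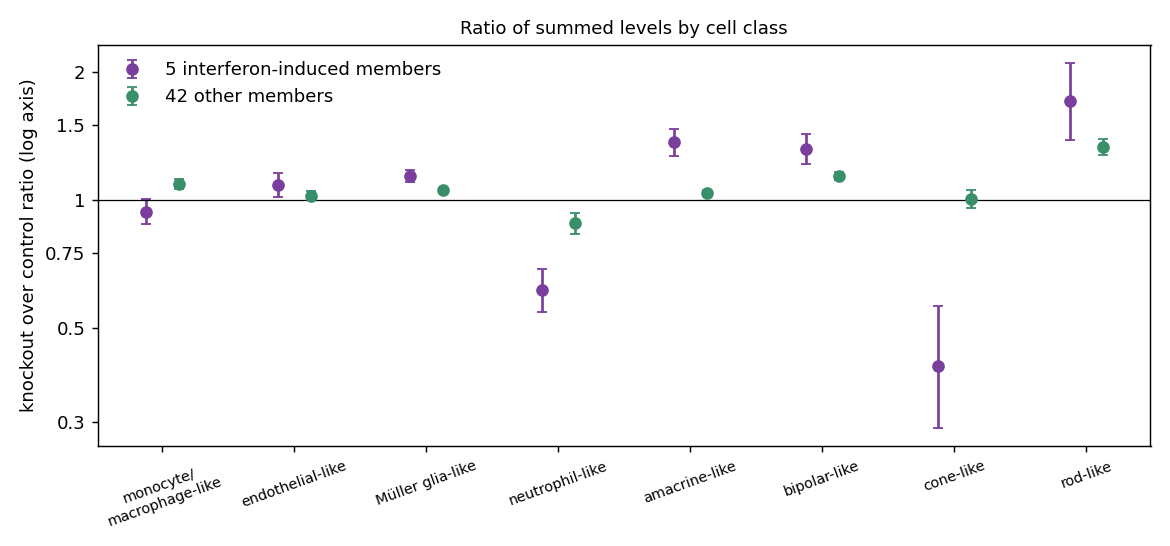
Knockout over control ratio (y axis, log scale) of the summed CPM of the 5 interferon-induced and the 42 other members in 8 classes (x axis), with exact 95% intervals. The induced sum is lowest in cone-like (0.407) and neutrophil-like cells (0.613) and highest in rod-like cells (1.71), and the other members lie between 0.882 and 1.33.

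The genes most like the summed induced profile over the 16 class and library points were H13 (a signal peptide peptidase, Pearson r = 0.975), Snx3 (0.956), Itga5 (0.955), Bax (0.953) and Nmi (0.9503), of 9115 genes compared. The points share libraries and depth, so these are descriptions with no test.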

How the data were processed

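Counts were deposited by the authors as UMI counts per gene and barcode, as 1 matrix for each library, with no normalization. The submitters' processing notes name Cell Ranger 6.0.0, Seurat 5.2.1 and the mm10 build, without their settings. Cells were kept here if mitochondrial UMIs made up less than 25% and 500 or more genes were detected, both measured over all 32285 features. An earlier run took them over distinct symbols and kept 1 cell fewer per library. The filter was changed once results of that run had been seen, because the changed version keeps the cell numbers given in an earlier description of these data. The first version is given as an alternative, and rod-like and amacrine-like values differ with it. Cells were clustered in Seurat 5.3.0 (2000 variable genes without members or pathway genes, 11 components, resolution 1) and named from 21 marker lists, with naming limits set after seeing the data. Counts were summed per class and library and given as CPM with exact Poisson intervals. Ratios have exact conditional binomial intervals, and shares Clopper-Pearson intervals. Called means past 1.5-fold with at least 100 UMIs in the class. Scrublet (scanpy 1.11.5) called 0 cells in either library, so it had not worked and no doublets were removed, and an alternative dropped the top-scoring cells (548 of control, 174 of knockout). TMM factors came from edgeR 4.0.16. Scripts were tested on simulated data. Named genes were the 5 induced and 3 constitutive catalytic members, the extreme ratios per class, the widest range per role and the extremes and most counted genes of 3 pathway lists. The members, lists and rules were chosen with earlier results of these data known. Some genes that these rules name are not reported here.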

Additional observations from a re-analysis of the deposited data

Results flagged for a closer look

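Some ratios of knockout over control were past 1.5-fold upwards in one class and downwards in another, with intervals off 1. The difference between classes was not tested, since each group has 1 library. The summed induced members had a ratio of 1.71 in rod-like cells, 0.613 in neutrophil-like cells and 0.407 in cone-like cells. The rod-like value turns below 1 without the cluster led by Ccl12, at 0.8496. The unnamed cluster with rod as its best match, which is outside that class, had 123 CPM in control and 84.0 CPM in knockout. The cone-like value is 0.690 without the 5 cells with most UMIs of each gene and 0.777 with a stricter cell filter, neither past 1.5-fold. Psmb9, the induced subunit that replaces Psmb6, had a ratio of 2.16 in amacrine-like and 1.52 in bipolar-like cells and 0.504 in neutrophil-like cells.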

How the results depend on the processing

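Of 1006 alternative values, 233 of the summary results and 632 of the remaining values, mostly single genes, stayed the same. For ratios and shares this means inside the interval of the reported value. For members past the fold it means the same number. For the members' median log2 ratio it means within 1 standard deviation of their log2 ratios. The others among the summary results, and every reversal, follow as knockout over control ratios, induced shares of the catalytic UMIs in percent, or numbers of members past the fold, and the cause was not tested. In Müller glia-like cells the induced sum was 1.31 with TMM scaling, which adds 0.20 to every log2 ratio in that class, 1.29 as a mean of per-cell CPM and 1.18 with cells thinned to 5000 UMIs, which left out 142 control and 78 knockout cells. The other members were at 1.21 with TMM and 1.13 per cell. The induced share was 42.5% in control and 43.5% in knockout after thinning, and 43.6% in knockout per cell. Within subclusters 0, 1 and 3 the induced sum was 0.975, 0.857 and 1.07 and the other members 0.996, 0.969 and 0.944. The control share there was 48.2%, 38.4% and 39.1% and the knockout share 46.5%, 32.8% and 44.2%. Of Müller glia-like members 2 were higher per cell, 1 was lower after thinning, 1 lower in subcluster 1, and 4 higher and 4 lower in subcluster 3. The subcluster numbers use the UMI minimum of the whole class and have no share of all genes beside them. A lower fold gave 1 higher and 2 lower, and requiring 1 UMI per library in place of the minimum gave 1 lower.

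The stricter cell filter (under 15% mitochondrial UMIs, at least 1000 genes) reversed the induced sum (0.483), Psmb8 (0.0718) and Psme1 (0.608) in rod-like cells. It gave rod-like shares of 25.7% and 5.38%, a cone-like sum of 0.777 with a knockout share of 12.5%, and in amacrine-like cells 1.02 for the other members and a knockout share of 15.2%. Resolution 0.6 gave rod-like shares of 27.7% and 46.9%. Members allowed among the variable genes gave a knockout amacrine-like share of 15.4%.

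The next alternatives were chosen after seeing the data. With the cell filter over distinct symbols, the version run first, the rod-like sum was 1.27, its knockout share 14.97% and Psmb8 reversed at 0.915, and the amacrine-like sum was 1.48 with a knockout share of 14.8%. Without the Ccl12-led cluster the rod-like sum (0.8496), Psmb8 (0.5924) and Psme1 (0.857) reversed and the knockout share was 10.7%. With the Chil1-led cluster the Müller glia-like induced sum was 1.05, the other members 1.07, the control share 43.95%, and 1 member was lower. Leaving out the 5 cells with most UMIs of each gene was planned for Müller glia-like cells and added for the other classes after seeing the data. It reversed the rod-like sum (0.996) and Psmb8 (0.730), with the other members at 1.16 and a knockout share of 10.5%. It gave induced and other sums of 1.19 and 1.09 in Müller glia-like, 0.857 and 0.960 in monocyte and macrophage-like and 1.20 and 1.145 in endothelial-like cells. The other members were at 0.817 in neutrophil-like, 1.165 in bipolar-like and 1.07 in amacrine-like cells, and the cone-like induced sum was 0.690. Shares were 6.31% and 3.09% in cone-like, 13.75% and 16.75% in bipolar-like and 7.83% and 11.5% in amacrine-like cells. Psmb8 and Psmb9 in neutrophil-like cells stayed below 1 in each alternative run for them. No paired analysis was possible, because each group is 1 library of pooled retinas and the labels pair no samples.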

Other observations

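Retinal ganglion-like cells were too few in control (39 cells, against 80 in knockout) for the comparison above. Their induced members summed to 214 CPM in control and 452 CPM in knockout. Psmb8 had 20 UMIs in control, found in 6 of 39 cells, with 95% of them in 5 cells. In knockout it had 202 UMIs, found in 35 of 80 cells, with 52.0% of them in 5 cells. Psmb10 was at 43.7 and 130 CPM, and the induced share of the catalytic pairs was 12.3% and 26.6%.

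Of 7 unnamed clusters, the one led by Dab1, Lamp5 and Nrg1 (102 control and 153 knockout cells) had 216 and 480.5 CPM of the induced members. The one led by Hs6st3, Esr1 and Ebf3 (102 and 59 cells) had 430.0 and 713 CPM, with Psmb9 at 52.8 and 110 CPM. The second was above every compared neuronal class in both libraries.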
